A study of Homo sapiens with 6 samples.

Results

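The genes described here are 47 genes of phototransduction and photoreceptor structure, named by symbol from knowledge of the retina, with earlier results of these data known. They were read out of a count table of 50883 gene symbols. All 47 symbols were present. The RNA came from D283, an established human cell line of medulloblastoma, a malignant tumour of the cerebellum. Cultures received a GFP-expressing lentivirus with a guide RNA, either non-targeting (the control group, 3 libraries) or directed at OTX2 (the OTX2 knockout group, 3 libraries), and were collected at the end of a week in culture. All 6 cultures thus carried a GFP lentivirus and a guide. The sources used here do not give the source of the nuclease, the number of guides or the share of edited cells. All replicates are infections of 1 cell line, so a p-value reflects variation among infections and not among tumours. The comparison asks how the RNA of these genes differs when OTX2 is targeted.

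Rods and cones, the light-sensing cells of the retina, use a G-protein cascade. An opsin activates transducin, transducin releases the catalytic subunits of phosphodiesterase 6 from their inhibitory subunit, cyclic GMP falls, and cyclic nucleotide gated channels close. Kinases, arrestins and a GTPase-activating complex end the response, and guanylate cyclases restore cyclic GMP. The homeodomain factors OTX2 and CRX switch on many of these genes in the developing retina and pineal gland, and a photoreceptor expression programme is a known feature of Group 3 medulloblastoma.

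Library totals lay between 54540645 and 62166870 counts. OTX2 itself, the targeted gene, was at 1002, 979 and 909 CPM in the control libraries and at 765, 824 and 887 CPM in the knockout libraries, where CPM is a count scaled to library size with TMM factors (trimmed mean of M values). The OTX2 groups did not overlap, but its RNA is no direct measure of editing, since small deletions need not remove a transcript. Control replicate 1 stood apart in its mitochondrially encoded RNA, with 0.764% of counts against 0.44% to 0.601% in the other libraries. Markers of the line were present in every library, among them OTX2, MYC, CRX and IMPG2. Others were low, such as EBF3 with a control mean of 0.956 CPM. TNNT2 had 7 counts in all control libraries and 15 in the knockout libraries.

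Photoreceptor genes were mostly lower in the knockout libraries, and the fall was moderate in size. Of the 47 genes, 27 fell, 1 rose, 12 did not pass the test and 7 had too few counts to be tested. A gene fell or rose where the Benjamini-Hochberg adjusted p of edgeR's quasi-likelihood test, taken over all 18420 tested genes, was under 0.05, and for comparison 18.5% of all tested genes fell and 21.2% rose, 39.7% in either direction. Tested with glmTreat against a 1.5-fold change, 14 of the 40 fell, where 0.852% of all tested genes did. With no filter on low counts 27 of the 47 fell, where 10.2% of genes did. With library totals in place of TMM the split over all tested genes was 2034 falls and 5210 rises, against 3404 and 3908 with TMM, while the number of photoreceptor genes that fell was again 27. The median log2 fold change was -0.73 over the 40 tested photoreceptor genes and 0.01 over all tested genes. Among the 27 that fell, log2 fold changes ran from -1.61 to -0.26 with a median of -0.99, and 12 were more than 2-fold lower in mean CPM, a size of fall seen in 0.798% of all tested genes. The 12 include RBP3, which passed the filter on low counts through the control libraries alone, and PDC, whose groups overlapped. They also include GNAT2, GNB3, GNGT1 and GNGT2, whose exons overlap those of other genes. Knockout libraries were all below the control libraries for 26 of the 40 tested genes and all above them for 1, where 23% and 26.2% of all tested genes did the same. As the genes were chosen with earlier results of these data known, their shares beside all tested genes are a description and not a test. In RNA from whole cultures, fewer cells of a type and less RNA per cell cannot be told apart.

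**Figure D1:**
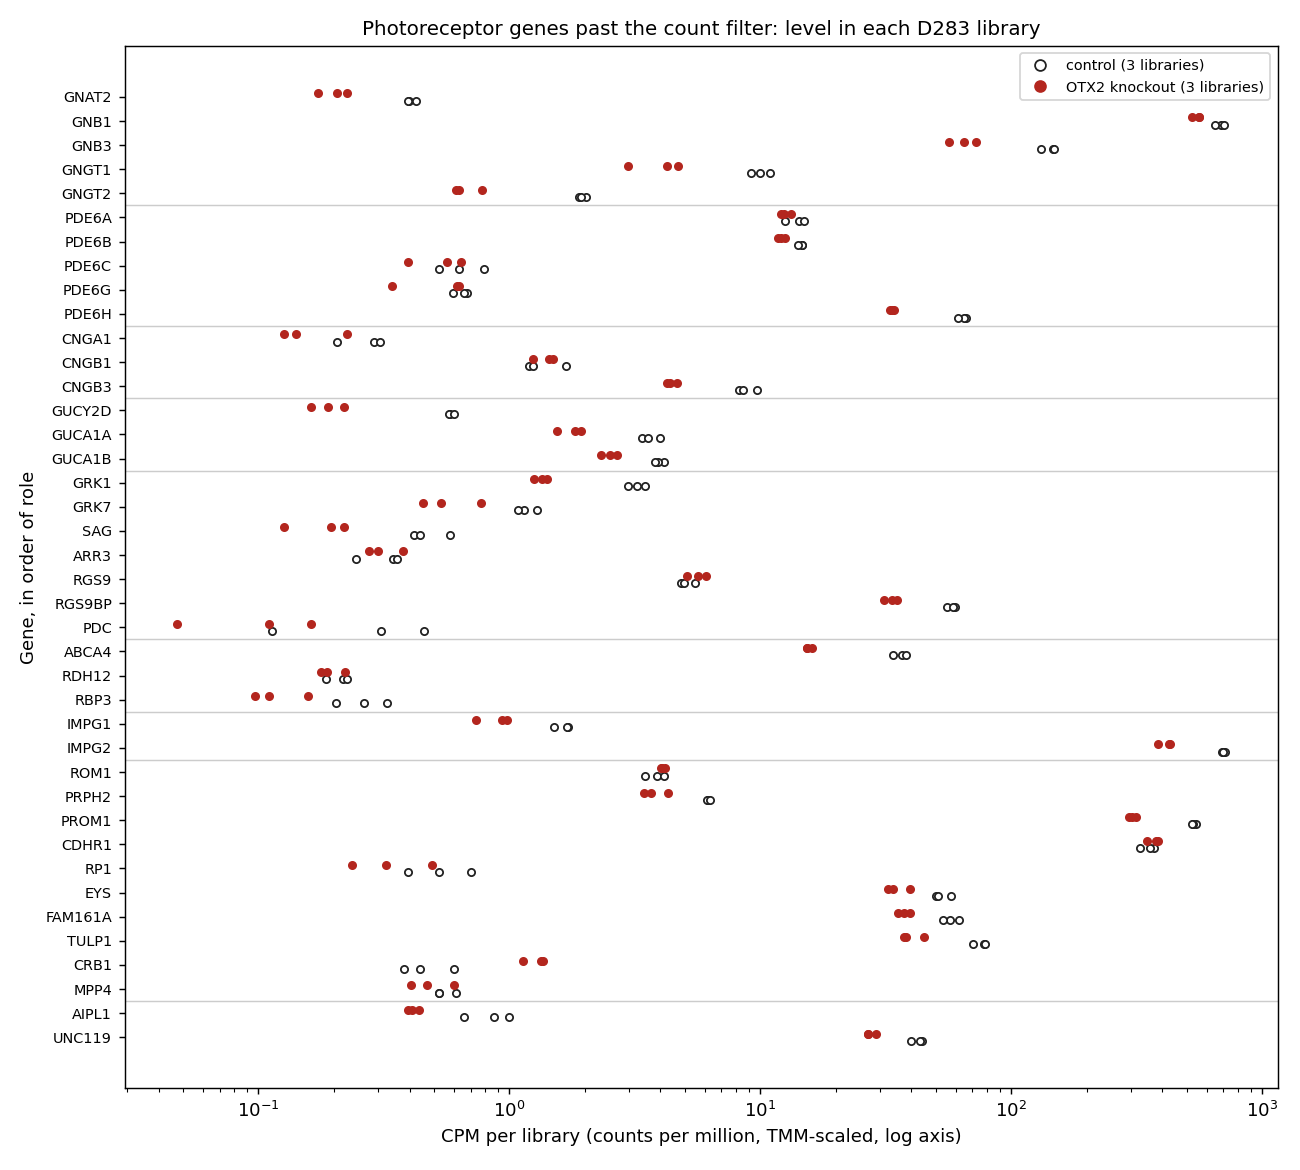
CPM of the 40 tested photoreceptor genes in each library on a log axis, with open points for the 3 control and filled points for the 3 OTX2 knockout libraries, and horizontal lines between roles. Levels span from under 1 CPM to about 700 CPM, and for IMPG2, PROM1, PDE6H and ABCA4 all filled points lie to the left of all open points, while those of CDHR1, PDE6A and ROM1 are mixed.

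The cascade was expressed unevenly before any comparison. The 47 genes together took 0.273% to 0.288% of counts in the control libraries and 0.196% to 0.209% in the knockout libraries, and 4 genes (GNB1, IMPG2, PROM1 and CDHR1) held 80.3% of those counts. Levels between genes are compared per kilobase of exon in the control libraries. The highest were GNB1 with 106 CPM per kb, PDE6H with 85.8, IMPG2 with 84.1, PROM1 with 71.7, CDHR1 with 46, GNB3 with 41.3, TULP1 with 25.5 and RGS9BP with 20 CPM per kb. In contrast, GNAT2 was at 0.293 CPM per kb, PDE6C at 0.196 and CNGA1 at 0.0745 CPM per kb. The 7 untested genes included OPN1SW, the blue cone opsin, GNAT1, the rod transducin alpha subunit, and RCVRN, the calcium sensor recoverin. The subunits of 1 complex thus stood at very different RNA levels, as in cone phosphodiesterase, whose inhibitory subunit PDE6H and catalytic subunit PDE6C were at 85.8 and 0.196 CPM per kb. On GRCh38 with GENCODE release 29 models, the genes with most counts were GNB1 at chr1:1785285-1891117 (minus strand), IMPG2 at chr3:101222546-101320560 (minus), PROM1 at chr4:15963076-16084378 (minus) and CDHR1 at chr10:84194635-84219621 (plus). PDE6H lies at chr12:14973022-14981865 (plus), GNB3 at chr12:6839954-6847393 (plus), ABCA4 at chr1:93992835-94121132 (minus) and CRB1 at chr1:197268204-197478455 (plus).

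The upstream DNA of these genes was examined because OTX2 and CRX bind the motif TAATCC. RefSeq promoter windows on GRCh38.p14 were matched for 36 of the 47 genes (46 windows, some genes having several starts), and the 250 bases before each start were searched for TAATCC on both strands. The genes without a matched window were GNB3, GNGT2, PDE6G, CNGB3, GUCA1B, RCVRN, ABCA4, RDH12, RBP3, RP1 and AIPL1. The motif was found for 11 of the 36 genes (30.6%), where 6.9% of all genes with a window held it, and by window the shares were 23.9% and 5.62%. The windows also differed in base composition, with a median GC content of 51.4% against 58% for all windows, and its part in the motif share was not tested. Among genes with a window, the motif was found for 4 of 20 that fell, 4 of 9 that did not pass, the 1 that rose and 2 of 6 that were not tested. The differences between these shares were not tested, and a match is only a string of letters.

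The windows shown are those of SAG and EYS (fell, with a match), PDE6A and CNGB1 (did not pass, with a match), and IMPG2 and PRPH2 (fell, without a match), and none of them overlaps an exon of GENCODE release 29. Each is written 5′ to 3′ on the strand of its gene, with TAATCC or its reverse complement GGATTA in capitals. The match begins 44 bases before the start in SAG, 13 in EYS, 72 in PDE6A and 44 in CNGB1. The positions are chr2:233307566-233307815 (plus strand) for SAG, chr6:65707227-65707476 (minus) for EYS, chr5:149944794-149945043 (minus) for PDE6A, chr16:57971129-57971378 (minus) for CNGB1, chr3:101320576-101320825 (minus) for IMPG2 and chr6:42722598-42722847 (minus) for PRPH2.
SAG: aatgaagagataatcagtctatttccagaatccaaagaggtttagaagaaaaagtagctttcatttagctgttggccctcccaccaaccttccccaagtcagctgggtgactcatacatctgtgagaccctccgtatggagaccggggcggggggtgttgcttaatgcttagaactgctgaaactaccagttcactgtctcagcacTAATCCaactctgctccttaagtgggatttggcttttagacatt
EYS: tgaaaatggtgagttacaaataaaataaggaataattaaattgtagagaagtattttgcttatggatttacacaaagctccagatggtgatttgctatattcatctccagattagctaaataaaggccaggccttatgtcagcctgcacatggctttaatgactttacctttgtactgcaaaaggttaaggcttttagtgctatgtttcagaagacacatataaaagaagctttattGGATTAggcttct
PDE6A: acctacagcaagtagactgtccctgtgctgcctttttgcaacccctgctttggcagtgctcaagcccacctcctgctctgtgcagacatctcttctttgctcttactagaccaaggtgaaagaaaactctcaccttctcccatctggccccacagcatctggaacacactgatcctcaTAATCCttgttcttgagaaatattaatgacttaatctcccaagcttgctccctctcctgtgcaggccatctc
CNGB1: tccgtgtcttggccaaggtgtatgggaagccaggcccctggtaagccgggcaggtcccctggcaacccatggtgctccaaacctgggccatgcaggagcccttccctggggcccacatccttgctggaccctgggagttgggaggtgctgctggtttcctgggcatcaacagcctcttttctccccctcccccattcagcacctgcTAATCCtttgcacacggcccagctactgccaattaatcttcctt
IMPG2: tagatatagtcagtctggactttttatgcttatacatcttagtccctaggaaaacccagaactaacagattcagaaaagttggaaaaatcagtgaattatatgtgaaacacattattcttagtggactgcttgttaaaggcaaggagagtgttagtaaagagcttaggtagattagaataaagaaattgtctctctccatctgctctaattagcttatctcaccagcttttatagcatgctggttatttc
PRPH2: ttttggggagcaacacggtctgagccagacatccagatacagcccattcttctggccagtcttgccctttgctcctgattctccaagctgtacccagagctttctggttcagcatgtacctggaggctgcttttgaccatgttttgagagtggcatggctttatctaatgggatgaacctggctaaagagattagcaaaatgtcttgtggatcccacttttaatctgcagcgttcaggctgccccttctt
The other matches were in windows of GUCA1A, which held 2, and of PROM1 (1 of its 4 windows), CRB1, MPP4, PDE6C, OPN1SW (2 matches) and GUCY2F. The windows of GUCA1A, CRB1 and MPP4 overlap exons of the same gene in GENCODE, so the RefSeq start is not the only annotated start there.

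Transducin subunits fell, and those of rods and cones were both among them. GNB3, the cone beta subunit, was at 147, 148 and 131 CPM in control and 56.5, 64.9 and 72.3 CPM in knockout libraries. The highest knockout library was well below the lowest control, and the log2 fold change was -1.14 (SE 0.08, edgeR adjusted p = 1.81e-08). GNB1, a beta subunit used by rod transducin and also expressed throughout the body, was at 687, 702 and 647 CPM in control and 524, 558 and 559 CPM in knockout libraries. Its groups were also separate, but its fall was smaller, with a log2 fold change of -0.31 (SE 0.05, edgeR adjusted p = 0.000136).

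The gamma subunits showed the largest falls of the G protein. GNGT1, of rods, was at 9.21, 10 and 10.9 CPM in control and 2.98, 4.72 and 4.25 CPM in knockout libraries, a log2 fold change of -1.34 (SE 0.13, edgeR adjusted p = 7.8e-07). GNGT2, of cones, had 112, 112 and 103 counts in control and 39, 48 and 40 in knockout libraries, a log2 fold change of -1.53 (SE 0.16, edgeR adjusted p = 1.96e-06). Both separated the groups without overlap. The cone alpha subunit GNAT2 had only 22, 25 and 21 counts in control and 11, 14 and 13 in knockout libraries (log2 fold change -1, SE 0.28, edgeR adjusted p = 0.00954), and its call was lost with DESeq2 (adjusted p = 0.0741). Exons of GNAT2 overlap those of GNAI3 over 1339 of 1381 bases, and exons of GNB3 overlap CDCA3, of GNGT1 overlap TFPI2 and of GNGT2 overlap ABI3, so these counts are uncertain.

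GNAT1, the rod alpha subunit, went the other way at a very low level. It had 5, 3 and 2 counts in control libraries and 19, 12 and 8 in knockout libraries. The sums were 10 (95% exact Poisson interval 4.8 to 18.4) and 39 (27.7 to 53.3), intervals that cover counting error only. No library pair overlapped, yet the gene was below the filter on low counts. Without the filter its log2 fold change was 1.75 (edgeR adjusted p = 0.00616), in a fit where 12.6% of genes rose.

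Phosphodiesterase 6 subunits differed in size of change. PDE6H, the inhibitory gamma subunit of cones, was at 66.2, 64.8 and 61.4 CPM in control and 32.8, 34.1 and 33.6 CPM in knockout libraries. The spread within groups was small and the knockout level was 52.2% of control, a log2 fold change of -0.94 (SE 0.05, edgeR adjusted p = 1.04e-09). The rod catalytic subunit PDE6B was at 14.7, 14.6 and 14.1 CPM in control and 12.6, 11.8 and 12.1 CPM in knockout libraries, a small fall without overlap (log2 fold change -0.26, SE 0.06, edgeR adjusted p = 0.00374). Its rod partner PDE6A was at 12.6, 14.2 and 14.9 CPM in control and 12.1, 12.4 and 13.2 CPM in knockout libraries. Those values overlapped through control replicate 1, and the interval of the log2 fold change ran from -0.3 to 0.01 (edgeR adjusted p = 0.124). Without control replicate 1, PDE6A passed (log2 fold change -0.22, edgeR adjusted p = 0.0177). PDE6C and PDE6G, the cone catalytic and rod inhibitory subunits, were both under 1 CPM and did not pass, with 95% intervals of the log2 fold change from -0.8 to 0.24 and from -0.81 to 0.25.

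Among the channel subunits, the cone subunit CNGB3 fell. It was at 9.71, 8.25 and 8.57 CPM in control and 4.25, 4.38 and 4.66 CPM in knockout libraries, which was 50.1% of control without overlap (log2 fold change -1, SE 0.09, edgeR adjusted p = 3.48e-07). The rod channel subunits did not pass. CNGB1 averaged 1.37 ± 0.265 CPM in the 3 control libraries and 1.39 ± 0.131 CPM in the 3 knockout libraries (mean ± SD), with an interval of the log2 fold change from -0.34 to 0.37. CNGA1 was at 0.267 ± 0.0529 and 0.165 ± 0.054 CPM, with an interval from -1.44 to 0.04. The cone alpha subunit CNGA3 had 2 counts in all control libraries and 1 in the knockout libraries, too few to compare.

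The genes that restore cyclic GMP fell where they could be tested. GUCY2D, a retinal guanylate cyclase, had 32, 34 and 32 counts in control and 14, 10 and 12 in knockout libraries. That was 32.6% of control in CPM, the lowest fitted value among the tested photoreceptor genes, with a log2 fold change of -1.61 (SE 0.26, edgeR adjusted p = 0.000171). GUCA1A and GUCA1B are calcium-binding activators of the cyclases. GUCA1A was at 3.99, 3.37 and 3.56 CPM in control and 1.93, 1.55 and 1.82 CPM in knockout libraries (log2 fold change -1.04, SE 0.12, edgeR adjusted p = 8.08e-06). GUCA1B was at 4.12, 3.91 and 3.79 CPM in control and 2.51, 2.68 and 2.31 CPM in knockout libraries (log2 fold change -0.66, SE 0.1, edgeR adjusted p = 0.00015). Both activators separated the groups. The related cyclase GUCY2F and the cone activator GUCA1C were not tested, with 6 and 16 counts in all control libraries and 13 and 7 in the knockout libraries.

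Of the 8 genes that end the light response 7 were tested, and 5 of these fell, where 18.5% of all tested genes did. GRK1, the rhodopsin kinase, was at 2.96, 3.47 and 3.23 CPM in control and 1.35, 1.41 and 1.25 CPM in knockout libraries, 41.5% of control without overlap (log2 fold change -1.27, SE 0.12, edgeR adjusted p = 1.15e-06). The cone kinase GRK7 was at 1.14, 1.08 and 1.29 CPM in control and 0.534, 0.453 and 0.774 CPM in knockout libraries (log2 fold change -0.99, SE 0.21, edgeR adjusted p = 0.00147). Here too the groups were separate, with knockout replicate 3 the highest of its group. SAG, the rod arrestin, had 23, 26 and 31 counts in control and 14, 12 and 8 in knockout libraries (log2 fold change -1.4, SE 0.3, edgeR adjusted p = 0.00178). The cone arrestin ARR3 did not pass, with 19, 21 and 13 counts against 24, 17 and 19 and an interval of the log2 fold change from -0.6 to 0.61.

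The GTPase-activating complex of transducin was split. RGS9BP, its membrane anchor, was at 55.7, 59.7 and 58.7 CPM in control and 31.2, 33.4 and 35 CPM in knockout libraries, a separation without overlap (log2 fold change -0.81, SE 0.05, edgeR adjusted p = 1.79e-08). Its exons overlap those of ANKRD27 over 812 bases, so the count is uncertain. RGS9, the catalytic component, was at 5.51, 4.81 and 4.97 CPM in control and 6.08, 5.08 and 5.65 CPM in knockout libraries, which overlapped (interval of the log2 fold change -0.07 to 0.34). PDC, the transducin-binding phosducin, fell by the test but rested on few counts, 17, 27 and 6 in control and 7, 10 and 3 in knockout libraries. The PDC groups overlapped, and its edgeR adjusted p of 0.0304 rose to between 0.0523 and 0.199 without control replicate 1 or 2 or knockout replicate 1 or 3. RCVRN had 7 counts in all control libraries and 6 in the knockout libraries.

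Retinoid handling was represented by ABCA4, the outer segment transporter that clears retinal derivatives. It was at 36.8, 33.9 and 37.9 CPM in control and 16.1, 15.3 and 15.4 CPM in knockout libraries. Knockout libraries held 43.1% of the control level with little spread (log2 fold change -1.21, SE 0.06, edgeR adjusted p = 3.82e-10). RBP3, the retinoid carrier of the interphotoreceptor matrix, had 18, 12 and 14 counts in control and 7, 6 and 10 in knockout libraries. RBP3 passed the filter on low counts through the control libraries alone, and its edgeR adjusted p of 0.026 rose to between 0.0562 and 0.104 without control replicate 1 or 3 or knockout replicate 1 or 2. The retinol dehydrogenase RDH12 had 12, 11 and 12 counts in control and 12, 11 and 14 in knockout libraries, and its log2 fold change interval ran from -0.78 to 0.6. Exons of RDH12 overlap ZFYVE26, so this count too is uncertain. RDH8, the outer segment retinol dehydrogenase, had 0 counts in all 6 libraries, which allows up to 3 counts, or 0.0483 to 0.055 CPM per library.

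Both proteoglycans of the interphotoreceptor matrix, the material around the outer segments, fell. IMPG2, among the most abundant of the 47 genes, was at 692, 712 and 700.5 CPM in control and 383, 431 and 427 CPM in knockout libraries. The groups were far apart for so abundant a transcript, at 58.9% of control (log2 fold change -0.76, SE 0.05, edgeR adjusted p = 2.2e-08). IMPG1 was at 1.72, 1.69 and 1.5 CPM in control and 0.738, 0.938 and 0.979 CPM in knockout libraries, at 54.1% of control (log2 fold change -0.89, SE 0.16, edgeR adjusted p = 0.000479). Per kilobase the control levels of IMPG2 and IMPG1 were 84.1 and 0.431 CPM, far apart, while both knockout levels stood at like shares of control.

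**Figure D2:**
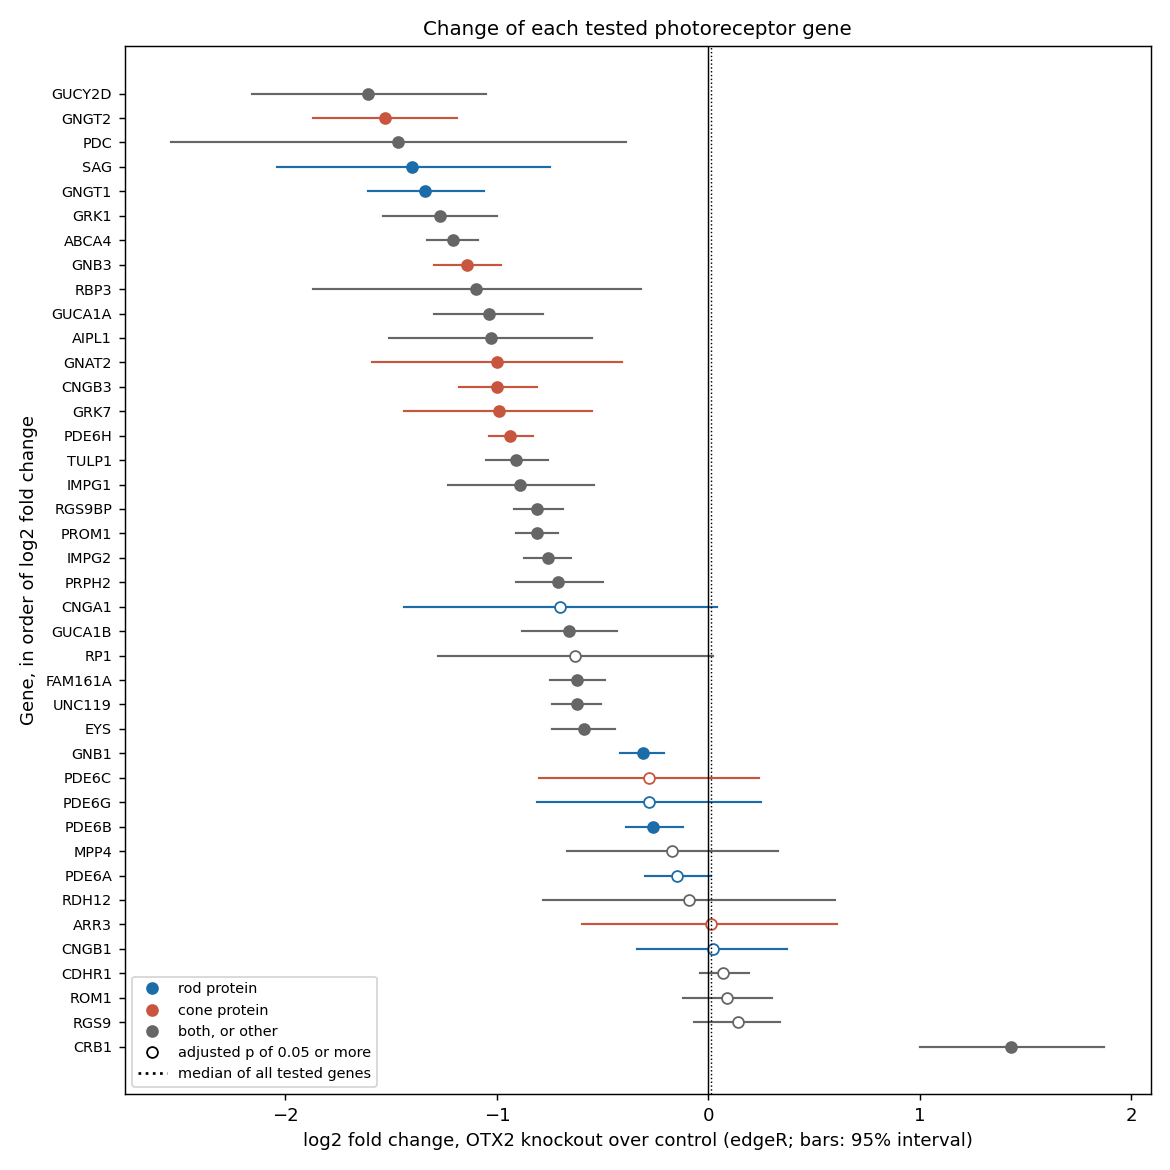
Log2 fold change of knockout over control for the 40 tested photoreceptor genes with 95% intervals from edgeR, coloured by rod, cone or shared use, with open points for an adjusted p of 0.05 or more and a dotted line at the median of all tested genes. Estimates run from -1.61 for GUCY2D to 1.43 for CRB1, and 34 of the 40 are below 0.

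Of the 10 structural genes of the outer segment, cilium and cell shape, all tested, 5 fell and 1 rose, where 18.5% of all tested genes fell and 21.2% rose. PROM1, prominin of the disc rims and also a stem cell marker, was at 544, 529 and 525 CPM in control and 294, 304 and 315 CPM in knockout libraries (log2 fold change -0.81, SE 0.05, edgeR adjusted p = 3.16e-09). PRPH2, the rim tetraspanin peripherin, was at 6.16, 6.11 and 6.32 CPM in control and 3.44, 4.3 and 3.66 CPM in knockout libraries (log2 fold change -0.71, SE 0.1, edgeR adjusted p = 3.63e-05). Neither gene's groups overlapped. TULP1, which serves traffic to the outer segment, fell from control values of 77.7, 78.3 and 70.2 CPM to knockout values of 37.5, 38 and 45 CPM (log2 fold change -0.91, SE 0.07, edgeR adjusted p = 6.08e-08). EYS, an extracellular protein needed for photoreceptor integrity, was at 57.3, 50.1 and 51.1 CPM in control and 32.3, 33.7 and 39.4 CPM in knockout libraries. Its exons overlap PHF3 over 175 of 17070 bases, so its count is uncertain. FAM161A, a protein of the connecting cilium, was at 62, 57 and 53.5 CPM in control and 35.5, 37.3 and 39.5 CPM in knockout libraries, and like EYS and TULP1 it separated the groups.

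The remaining structural genes did not fall. CDHR1, a cadherin of the outer segment base, was at 371, 356 and 326 CPM in control and 349, 378 and 383 CPM in knockout libraries. It had the depth to show a change of the size seen in PROM1, and its log2 fold change of 0.07 had an interval from -0.04 to 0.19. With library totals alone CDHR1 rose slightly (log2 fold change 0.15, edgeR adjusted p = 0.0325). ROM1, the partner tetraspanin of PRPH2, was at 3.88, 4.13 and 3.47 CPM in control and 4.18, 4.01 and 4.07 CPM in knockout libraries (interval -0.12 to 0.3), and its exons overlap EML3, so its count is uncertain. RP1, an axonemal protein, and MPP4, a scaffold of the photoreceptor synapse, were under 1 CPM and did not pass, with intervals from -1.28 to 0.02 and from -0.67 to 0.33. RP1 passed without knockout replicate 3 (log2 fold change -0.96, edgeR adjusted p = 0.0347).

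CRB1, an apical polarity protein of photoreceptors and Müller glia, was the tested gene that rose. It had 21, 26 and 32 counts in control and 72, 84 and 85 in knockout libraries, 269.9% of control in CPM. Every knockout library was above every control library, with a log2 fold change of 1.43 (SE 0.2, edgeR adjusted p = 5.05e-05). Its paralogue CRB2 rose as well, from 12.9 ± 0.965 to 17.6 ± 0.365 CPM (SD, n = 3 per group). Per kilobase the CRB1 level was 0.0372 CPM in the control group and 0.1 CPM in the knockout group.

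The carriers of lipid-modified proteins fell. UNC119, which binds the acylated transducin alpha subunit and is found in many tissues, was at 39.8, 44.1 and 43.3 CPM in control and 26.9, 26.8 and 28.9 CPM in knockout libraries (log2 fold change -0.62, SE 0.06, edgeR adjusted p = 3.75e-07). AIPL1, the chaperone of phosphodiesterase 6, had 48, 59 and 35 counts in control and 25, 27 and 26 in knockout libraries (log2 fold change -1.03, SE 0.22, edgeR adjusted p = 0.00196). Both separated the groups.

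By photoreceptor type, 6 of 8 tested cone genes and 4 of 8 tested rod genes fell, where 18.5% of all tested genes did, with median log2 fold changes of -0.99 and -0.3, beside 17 of 24 tested genes used by both. The rod genes that fell were GNB1, GNGT1, PDE6B and SAG, and those of cones were GNAT2, GNB3, GNGT2, PDE6H, CNGB3 and GRK7. Of these, GNGT1, GNAT2, GNB3 and GNGT2 have uncertain counts, and GNAT2 lost its call with DESeq2. GNB1 is also expressed throughout the body. The difference between rod and cone genes was not tested.

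Ratios of partner genes within a library do not depend on how libraries are scaled, and 10 pairs of partners, chosen after their values were seen, were compared. In 6 pairs the ratio separated the groups without overlap. Separation was common in these libraries, since the CPM of 23% of all tested single genes was lower and of 26.2% higher in every knockout library, and the share over all gene pairs was not computed. PROM1 over CDHR1 was 1.47, 1.49 and 1.61 in control and 0.843, 0.805 and 0.824 in knockout libraries. PRPH2 over ROM1 went from 1.59, 1.48 and 1.82 to 0.823, 1.07 and 0.899, and RGS9BP over RGS9 from 10.1, 12.4 and 11.8 to 5.13, 6.57 and 6.19, with ROM1 and RGS9BP among the uncertain counts. GNB3 over GNB1 had a mean of 0.209 ± 0.00652 in control and 0.118 ± 0.0109 in knockout libraries (SD, n = 3 per group), and the count of GNB3 is uncertain too. The others were GUCA1A over GUCA1B, with means of 0.924 and 0.712, and CNGB1 over CNGA1, with 5.25 and 8.91. That last ratio rested on few CNGA1 counts, 16, 18 and 11 in control and 9, 14 and 8 in knockout libraries. Each of these 6 had a two-sided exact permutation p of 0.1, the smallest that 3 against 3 libraries allow, and 0.167 after Benjamini-Hochberg adjustment over the 10 pairs. As the pairs were picked with their values known, these p-values cannot decide whether the ratios differ. Ratios of PDE6B to PDE6A (p = 0.5, exact permutation test), IMPG1 to IMPG2 (0.3), PDE6H to PDE6C (0.2) and PDE6G to PDE6A (0.8) overlapped between the groups.

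**Figure D3:**
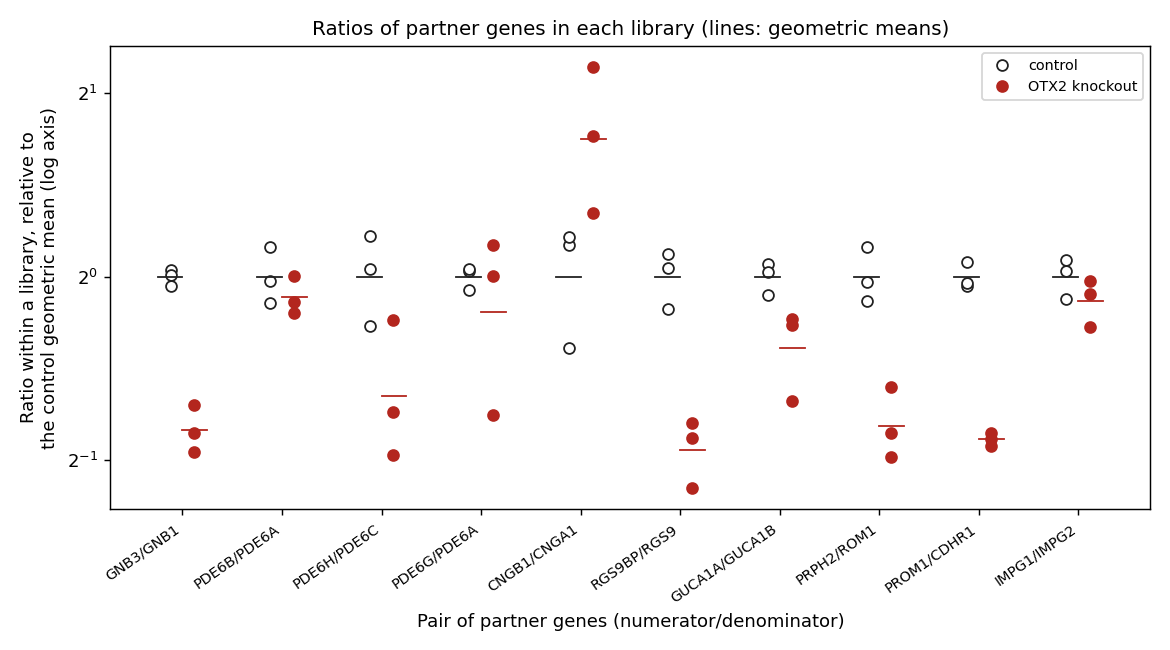
Ratio of CPM within each library for 10 pairs of partner genes, divided by the geometric mean of the 3 control libraries and drawn on a log axis, with lines at the geometric mean of each group. The 3 knockout points lie below all control points for GNB3/GNB1, RGS9BP/RGS9, GUCA1A/GUCA1B, PRPH2/ROM1 and PROM1/CDHR1, and above them for CNGB1/CNGA1.

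Related gene lists showed mixed differences, read against the 18.5% of all tested genes that fell and 21.2% that rose. Of 27 tested genes of photoreceptor transport and the cilium, 9 fell and 2 rose (median log2 fold change -0.08). MAK, a kinase of the photoreceptor cilium, fell 1.67-fold and RPGRIP1, an anchor of the connecting cilium, 1.24-fold. Of 17 tested genes of the photoreceptor synapse and its currents, 5 fell and 7 rose (median 0.02), with the vesicular glutamate transporter SLC17A7 up 3.13-fold. Of 12 tested genes on the list of the retinoid cycle and its carriers, 4 fell and 2 rose (median -0.09). RPE65, the isomerase of the pigment epithelium, fell 1.64-fold and STRA6, a retinol-binding protein receptor, rose 2.45-fold. The 4 falls include the list entry RPE (log2 fold change -0.24, edgeR adjusted p = 0.000812), which encodes a sugar phosphate epimerase and is no retinoid gene. Broadly expressed paralogues of the photoreceptor genes divided into 14 falls and 19 rises among 52 tested (median 0.03). Of 11 tested markers of Group 3 medulloblastoma lines, which share IMPG2 with the genes above, 8 fell and 1 rose (median -0.49). These falls include the targeted gene OTX2, and OTX2 and CRX are also on the list of photoreceptor transcription factors. The beta subunit GNB5, the partner of RGS9, was at 36.7 ± 2.56 and 33.4 ± 1.2 CPM (SD, n = 3 per group, edgeR adjusted p = 0.0718).

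Photoreceptor transcription factors were likewise mixed, with 5 of 13 tested falling and 4 rising. The falls include OTX2 itself, the targeted gene. NRL, the rod determinant, fell 1.97-fold and PRDM1 3.09-fold, while NEUROD1, a basic helix-loop-helix factor, rose 3.57-fold. CRX fell from a mean of 273 ± 10 to 241 ± 17.7 CPM (SD, n = 3 in each group, log2 fold change -0.18, SE 0.06, edgeR adjusted p = 0.0162).

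Markers of other retinal and related cells moved in both directions beside the photoreceptor genes, and their part in these results was not tested. Retinal bipolar markers fell for 5 of 11 tested and rose for 2, with a summed level of 46.4 to 51.6 CPM in control and 35.3 to 38.9 CPM in knockout libraries, and the ON bipolar channel TRPM1 fell 3.8-fold. Pigment epithelium and melanocyte markers fell for 6 of 11 and rose for 0, from a summed 684 to 710.1 CPM in control to 443 to 490 CPM, with MLANA at 0 in all libraries. Without SERPINF1, the highest of them, the sums were 390.1 to 399.7 CPM in control and 233 to 281 CPM in knockout libraries. RPE65 and TTR, which both fell, are also on the list of the retinoid cycle and its carriers. Pineal markers, which share GNGT1 with the genes above, fell for 3 of 9 and rose for 3, and summed to 113 to 119 CPM in control and 118 to 123 CPM in knockout libraries, with BSX at 0. Most of that sum was SLC6A6, and without it the ranges were 48.7 to 52.7 and 48.9 to 55.3 CPM, which overlapped. Horizontal and amacrine markers summed to 214 to 218 CPM in control and 258 to 266 CPM in knockout libraries (2 of 5 tested rose, 1 fell, ONECUT3 at 0), and without CALB1 to 123 to 133 and 116 to 124 CPM, which overlapped. Ganglion cell markers summed to 40.2 to 49.7 and 109 to 133 CPM (2 of 5 rose, 0 fell, ATOH7 at 0), mostly through NEFM. Müller glia and astroglial markers rose for 3 of 7 tested and fell for 3, with a median log2 fold change of 0.86. GJA1, a gap junction protein, rose 1.81-fold, the apolipoprotein APOE 2.91-fold and DKK3 3.04-fold. In contrast, the glutamate transporter SLC1A3 fell 1.66-fold and GLUL 1.45-fold. The sum of these markers was 6046 to 6462 CPM in control and 4176 to 4818 CPM in knockout libraries with GLUL, which is not restricted to glia, and 286 to 321 and 378 to 425 CPM without it, so its direction turned. The rise without GLUL came through GJA1, at a mean of 154 CPM in control and 279 CPM in knockout libraries. The Müller cell retinoid carrier RLBP1 had 1 count in all control libraries and 1 in the knockout libraries. Immune markers summed to 1.19 to 1.24 CPM in control and 0.995 to 1.02 CPM in knockout libraries (1 of 4 tested rose, 1 fell, CD3E at 0), and without CSF1R to 0.576 to 0.825 and 0.695 to 0.958 CPM, which overlapped. Endothelial and mesenchymal markers summed to 18 to 19.8 and 29.9 to 31.5 CPM (5 of 7 rose, 0 fell).

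**Figure D4:**
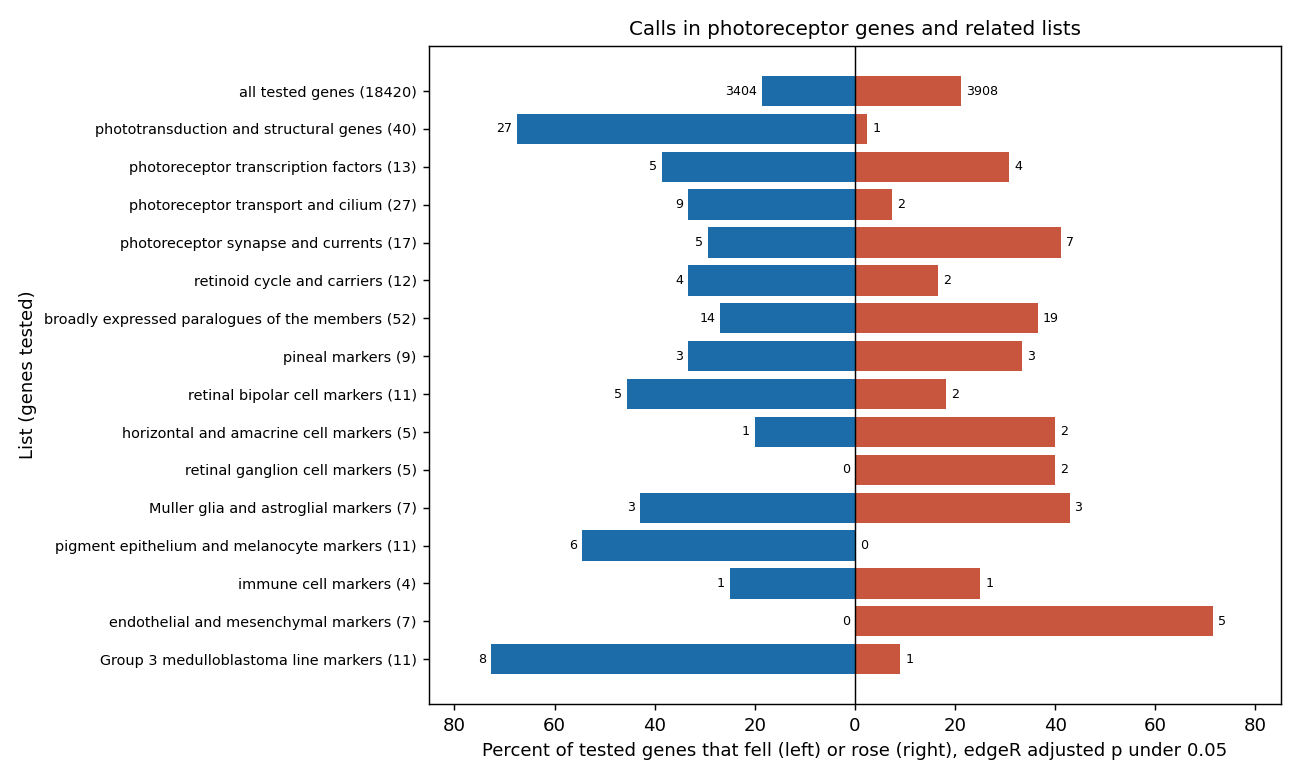
Percent of tested genes that fell (left) or rose (right) at an edgeR adjusted p under 0.05 for all tested genes, the photoreceptor genes and 14 related lists, with the number of genes at the end of each bar and the number tested in parentheses. The bars show 27 falls and 1 rise among 40 photoreceptor genes, beside 3404 falls and 3908 rises among 18420 genes.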

How the data were processed

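Total RNA of 6 D283 libraries was measured. The authors deposited unnormalized counts per gene symbol. Per the submitters' processing notes, STAR and hg38 were used. For the counting program, annotation, strand setting and filters, the step is not given in the sources used here. Counts were tested with edgeR 4.0.16 in R 4.3.3 (filterByExpr, TMM, glmQLFit and glmQLFTest), with Benjamini-Hochberg adjustment over 18420 genes and a threshold of 0.05. CPM are given as mean ± SD, and fold changes are ratios of mean CPM. SE and 95% intervals come from the fit, whose common biological coefficient of variation was 5.3%. Exon length and overlap came from GENCODE release 29 on GRCh38, and a count is called uncertain where another gene with over 10% of the gene's own count shares exon bases with it. Upstream sequence came from RefSeq. Every photoreceptor gene is accounted for, and at most 4 genes of each other list, those with the smallest adjusted p, are named. Also named are genes that a sentence on a photoreceptor gene rests on (CRX, CRB2, GNB5) and MYC as a marker of the line. GLUL, CALB1, SLC6A6, CSF1R and RLBP1, as genes that set or are missing from a list's sum, were named after their values were seen. So was TNNT2, as a marker with few counts. The 14 other lists held 245 entries, 241 of them in the table, 6 through an older symbol. The genes and lists were chosen with earlier results of these data known. Alternatives were other scalings, filters, thresholds and tools (DESeq2 1.42.0, limma-voom with limma 3.58.1, glmTreat) and leaving out each library. The scripts were tested on simulated data. Precision at low counts is limited by depth: 3 counts equal 0.0483 to 0.055 CPM.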

Additional observations from a re-analysis of the deposited data

How the results depend on the processing

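The number of photoreceptor genes that fell was between 21 and 27 under every alternative except glmTreat against a 1.5-fold change, where it was 14. Of all tested genes glmTreat called 1207 in either direction, of which 157 fell and 1050 rose. With DESeq2 24 of the photoreceptor genes fell and with limma-voom 26. With at least 1 CPM in at least 3 libraries 21 fell, and that filter left 13 of the genes untested. Leaving out 1 library gave 25 to 27. The number that rose was 2 with library totals alone (CDHR1 besides CRB1) and 2 with no filter (GNAT1 besides CRB1), and between 1 and 2 when 1 library was left out, where the added gene was GNAT1. Their median log2 fold change lay between -0.82 and -0.66 under all alternatives. Of the 40 tested genes, 24 kept their call under every alternative that tested them (8 of the 24 were not tested with at least 1 CPM in at least 3 libraries) and 16 did not, 10 of these only against the 1.5-fold change, and no called gene changed direction. PDC and RBP3 lost their calls most often, with adjusted p of 0.0671 and 0.138 in DESeq2. No paired analysis was possible because the labels number the libraries 1 to 6 and the groups share no number. Depth limits what can be said of the 7 untested genes.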
